A study of Mus musculus with 9 samples.

Results

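Transcript levels of 10 genes of the renal proximal tubule were examined in whole kidneys of WT mice and of Trex1-/- mice treated with PBS or with SN-011. The genes were chosen by name, with earlier results of these data known but by no measured value, for products that take up or reabsorb filtered substances and, in the case of Hnf4a, maintain the cells that do so: Lrp2, Cubn, Slc34a1, Slc34a3, Slc5a2, Slc5a12, Slc7a13, Slc4a4, Aqp1 and Hnf4a. All 10 were found among the 54532 genes of the count data, and all 10 were among the 16646 genes tested. Polyadenylated RNA was sequenced from 9 kidney samples of C57BL/6J mice, 3 per group. Trex1-/- mice were bred from heterozygous parents. WT mice in general were bought at an age of 4 to 8 weeks, which the methods do not tie to these samples, so the source and age of the WT mice used here are not known. Both Trex1-/- groups received daily intraperitoneal injections for 2 weeks from an age of 1 month, either of SN-011 at 10 mg/kg or of the vehicle, PBS with 1% Tween 80. SN-011 blocks STING, which relays the signal of the cytosolic DNA sensor cGAS, and TREX1 is an exonuclease that removes DNA from the cytosol. No treatment is stated for the WT mice, so in a change against WT the genotype and the injections cannot be told apart. The deletion is constitutive and reaches every cell type of the kidney.

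The proximal tubule recovers most of what the glomerulus filters. Its apical brush border carries the endocytic receptors megalin (Lrp2) and cubilin (Cubn), which capture filtered proteins, and sodium-coupled carriers that draw phosphate, glucose, lactate and amino acids out of the filtrate. Water follows through aquaporin-1, and bicarbonate leaves the cell across the basolateral membrane through the cotransporter encoded by Slc4a4. The segments of the tubule differ in what they express: Slc5a2, encoding the glucose carrier SGLT2, is known from the early convoluted part, and Slc7a13, encoding the amino acid transporter AGT1, from the last, straight part, where it is known to be far more abundant in male than in female mice. HNF4A is a transcription factor that maintains the identity of these cells.

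Each library held between 16118813 and 21928965 counts over genes, and the 10 genes together took 0.964% to 1.15% of them. Levels are given as CPM, counts scaled to a common library size with TMM factors of 0.926 to 1.06. Trex1 was listed at 0 counts in all 9 libraries, WT included, and all of its exon bases are shared with Atrip, so the counts do not check the genotype. The libraries were of 2 kinds that cut across the groups. Transcripts of the Y chromosome reached 153 to 188 CPM in 5 libraries, namely WT replicate 3, all 3 of the PBS-treated Trex1-/- group and SN-011-treated replicate 2, and at most 0.377 CPM in the other 4, which carried Xist. Sex is not among the labels. A second fit of every comparison held a term for Y-linked reads, and its result is given where it changed a call of a gene named here. All 9 proximal tubule markers were detected. Of these, 5 are among the 10 genes, and the other 4 (Fbp1, Gatm, Miox and Ass1) had WT medians of 885 to 1959 CPM. The 9 together, a sum that the members dominate, had levels of 13230.0 to 14087 CPM in WT, 12143 to 13577 CPM in PBS-treated and 11749.5 to 13689 CPM in SN-011-treated Trex1-/- kidneys. In whole kidney, fewer proximal tubule cells and less RNA per cell cannot be told apart.

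Divided by exon length, so that genes can be set side by side, the 10 genes covered a wide range of levels in WT kidneys. Slc34a1 stood highest at 1064 ± 27.5 CPM per kb of exon (SD, n = 3), followed by Aqp1 at 419 ± 37.3 CPM per kb, and these 2 genes overlapped neither each other nor any other. Slc5a2 (135 ± 10.3 CPM per kb) and Lrp2 (131 ± 10.9 CPM per kb) came next and overlapped. Hnf4a had 109.6 ± 2.57 CPM per kb and Slc4a4 60.7 ± 3.89 CPM per kb. Slc5a12 (41.8 ± 5.19 CPM per kb) and Slc34a3 (36.1 ± 1.18 CPM per kb) overlapped, and Cubn was lowest at 32.6 ± 1.02 CPM per kb. Slc7a13 had no stable place in this order, with 1.06, 4.2 and 237 CPM per kb in the 3 WT kidneys. In PBS-treated Trex1-/- kidneys it was the third of the 10 at 321 ± 80.5 CPM per kb, and Slc5a2, at 82.4 ± 5.09 CPM per kb, lay below Hnf4a at 121 ± 14.7 CPM per kb with no overlap. In SN-011-treated kidneys Hnf4a (141 ± 16.9 CPM per kb) and Lrp2 (108 ± 16.7 CPM per kb) overlapped, as did Slc34a3 (26.4 ± 8.44 CPM per kb) and Cubn (26.1 ± 2.5 CPM per kb).

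**Figure D1:**
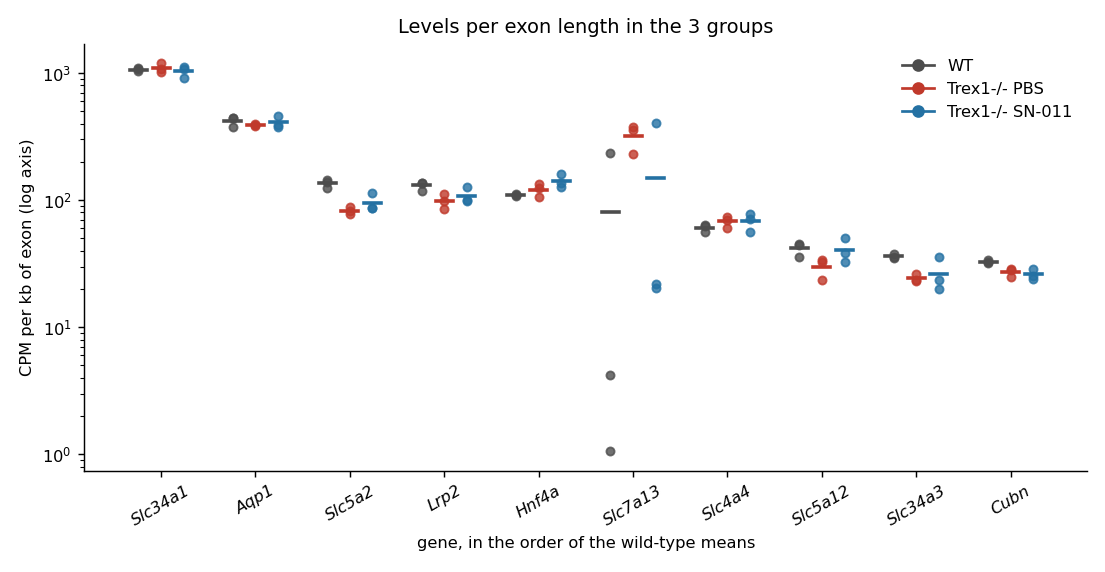
CPM per kb of exon (log axis) of the 10 genes in the order of their WT means; points are libraries, bars are group means, colours are the 3 groups. Slc34a1 and Aqp1 lead in WT, and the Slc7a13 points lie far apart in the WT and SN-011-treated groups.

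Across the comparisons, Slc5a2 was the one gene of the 10 called between PBS-treated Trex1-/- and WT kidneys, at a Benjamini-Hochberg adjusted p under 0.05 in edgeR's quasi-likelihood test, and it was lower. Over all 16646 genes, 1.88% were called in this comparison and 0.439% were called lower. At an unadjusted p under 0.05 stood 5 of the 10 (Lrp2, Cubn, Slc34a3, Slc5a2 and Slc5a12), against 15.2% of all genes. All 3 PBS-treated libraries lay below all 3 WT libraries for these 5 genes, a pattern shown by 12.3% of all genes, and none of the 10 lay wholly above WT. The median log2 fold change of the 10 was -0.18, beside 0.0028 over all genes. No gene of the 10, and 0% of all genes, were called between SN-011-treated and PBS-treated Trex1-/- kidneys. There, 1905 genes had an unadjusted p under 0.05, DESeq2 called 166 genes and edgeR's exact test 127, none of them among the 10. DESeq2 gave no adjusted p for Slc7a13 in the comparisons between groups, so it did not judge that gene. None of the 10 separated the SN-011-treated and PBS-treated groups without overlap, which 16.1% of all genes did. Against WT, SN-011-treated kidneys had none of the 10 called, with 1.28% of all genes called, and 4 of the 10 at an unadjusted p under 0.05, with 18.0% of all genes. These are Cubn, Slc34a3, Slc5a2 and Hnf4a. Both Trex1-/- comparisons with WT use the same 3 WT libraries, so they are not independent of each other.

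**Figure D2:**
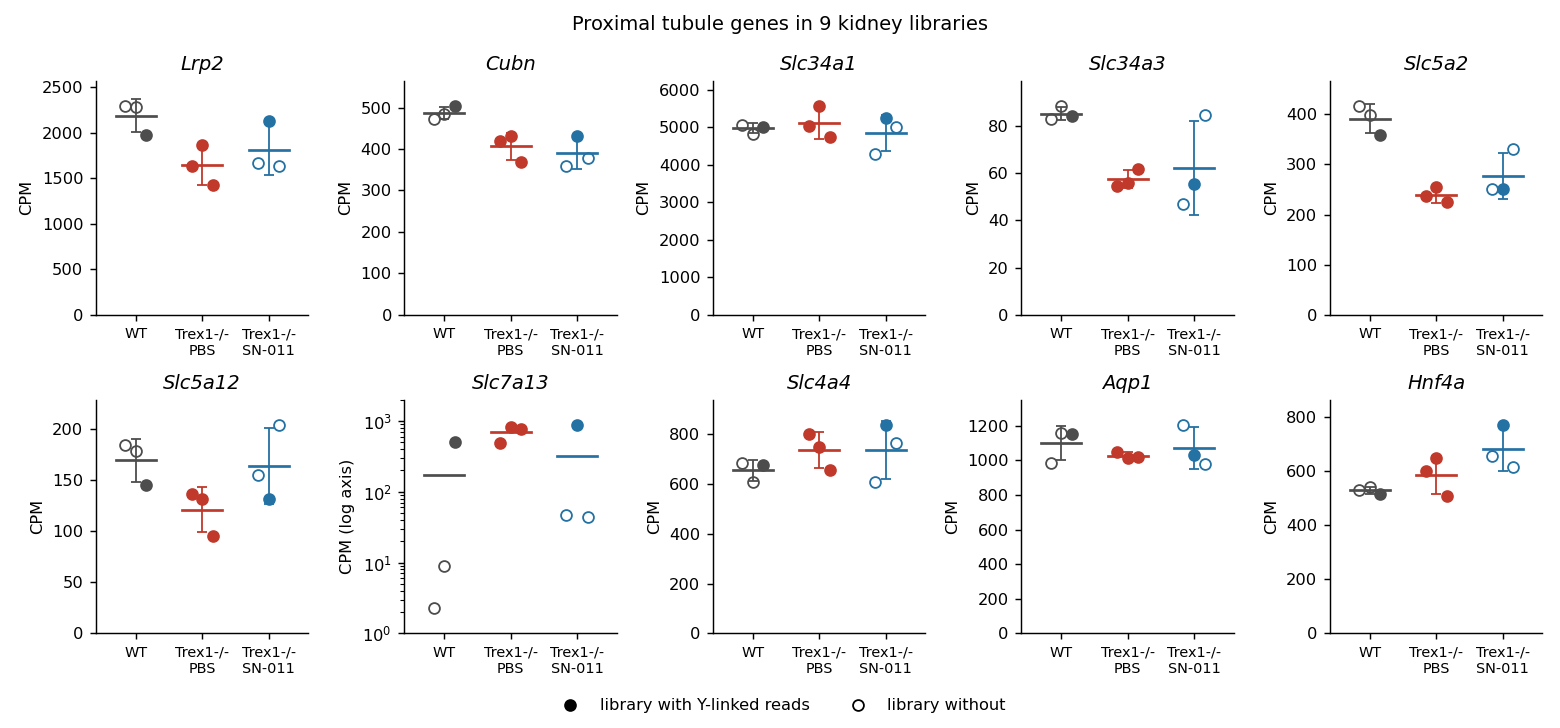
CPM of each gene in every library by group, with the group mean (line) and SD (bars, omitted for Slc7a13, whose axis is logarithmic); filled points are libraries with Y-linked reads and open points those without. The PBS-treated points lie below all WT points for Lrp2, Cubn, Slc34a3, Slc5a2 and Slc5a12, and the points of Slc7a13 and Slc5a12 separate into filled and open ones.

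The endocytic receptors were lower in Trex1-/- kidneys in the values, without reaching the threshold. Megalin, the product of Lrp2 (chr2:69424340-69586065, minus strand, GRCm38), is a large receptor of the LDL receptor family that binds filtered albumin, vitamin D-binding protein and many other ligands. Lrp2 was measured at 2291, 2285 and 1974 CPM in the WT kidneys, at 1630.3, 1869 and 1429.5 CPM in the PBS-treated Trex1-/- kidneys and at 1665, 2133 and 1635 CPM in the SN-011-treated Trex1-/- kidneys. All PBS-treated libraries lay below all WT libraries, whereas SN-011-treated replicate 2 lay inside the WT range. The log2 fold change of Lrp2 in PBS-treated Trex1-/- against WT kidneys was -0.41 (95% interval -0.73 to -0.088, adjusted p = 0.213), a fold of 0.752. With SN-011, it was 0.14 (95% interval -0.18 to 0.46, adjusted p = 0.752) against PBS and -0.27 (95% interval -0.59 to 0.052, adjusted p = 0.359) against WT. Between the 2 WT and the 2 SN-011-treated libraries without Y-linked reads, where 2.78% of all genes were called, Lrp2 was called lower at -0.47 (95% interval -0.69 to -0.26, adjusted p = 0.0413). Between the 1 WT and the 1 SN-011-treated library with Y-linked reads its difference was 0.13 (95% interval -0.35 to 0.61, adjusted p = 0.766), with the spread taken from the 3 PBS-treated libraries. The test of the difference between these 2 changes, called for 0.499% of all genes, gave 0.58 (SE 0.22, adjusted p = 0.328) for Lrp2.

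Cubilin, encoded by Cubn (chr2:13276338-13491813, minus strand), is the receptor for intrinsic factor-vitamin B12 and albumin that depends on megalin and amnionless for its uptake. Cubn was measured at 474, 484 and 504 CPM in the WT kidneys, at 419, 431 and 369 CPM in the PBS-treated Trex1-/- kidneys and at 360.3, 432 and 378 CPM in the SN-011-treated Trex1-/- kidneys. No Trex1-/- library of either group reached the lowest WT library. The log2 fold change was -0.26 (95% interval -0.49 to -0.030, adjusted p = 0.27) with PBS and -0.32 (95% interval -0.55 to -0.089, adjusted p = 0.154) with SN-011, both against WT, and -0.059 (95% interval -0.29 to 0.17, adjusted p = 0.868) between the treatments. The ratio of Cubn to Lrp2 within a library did not separate the groups: it was 0.225 ± 0.0266 in WT, 0.249 ± 0.0156 in PBS-treated and 0.217 ± 0.0143 in SN-011-treated kidneys (SD, n = 3). Exact two-sided permutation tests of its log2 gave p = 0.2 for PBS against WT, where 3 against 3 libraries allow no p under 0.1. Across the 9 libraries the log2 levels of Lrp2 and Cubn varied together, with Pearson's r = 0.822 (exact permutation p = 0.00875, adjusted over the 3 pairs examined p = 0.0254) and Spearman's rho = 0.767 (exact permutation p = 0.0214, adjusted p = 0.0321). Without the 2 libraries farthest from the median of Lrp2, r was 0.754, and over deviations from the group means it was 0.752. The permutations disregarded group and Y-linked state. Shifts shared by a group or a state can therefore enter these p-values.

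The stretches just upstream of the receptor genes are shown because the levels of the pair varied together. RefSeq promoter windows on GRCm38.p6, of 250 bases before the annotated start, were held for 7 of the 10 genes, and no entry was matched for Slc5a2, Slc5a12 and Slc7a13. Lrp2 is printed from chr2:69586066-69586279 (minus strand, 214 bases) and Cubn from chr2:13491877-13492126 (minus strand, 250 bases), 5′ to 3′ and without annotated exon. Capitals mark matches, on either strand, to 1 of 3 motifs searched: the HNF4 site CAAAGTCCA, the TATA box TATAAA and the GC box GGGCGG.

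Lrp2: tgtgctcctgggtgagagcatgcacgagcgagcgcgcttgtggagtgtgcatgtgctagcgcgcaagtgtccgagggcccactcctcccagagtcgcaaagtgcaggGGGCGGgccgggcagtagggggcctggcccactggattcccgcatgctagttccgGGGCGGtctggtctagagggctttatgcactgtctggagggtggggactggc

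Cubn: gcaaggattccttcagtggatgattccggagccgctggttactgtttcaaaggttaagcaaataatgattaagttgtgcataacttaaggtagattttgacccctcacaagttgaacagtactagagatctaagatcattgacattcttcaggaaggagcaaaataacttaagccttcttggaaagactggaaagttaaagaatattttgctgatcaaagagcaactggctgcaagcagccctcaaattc

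The Lrp2 window was 66.4% G or C with 2 GC boxes, and the Cubn window was 39.6% G or C with no match to any of the 3 motifs. A GC box was found in 32.7% of all 32851 windows of that length, and a match is a description of the letters, not a site.

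Of the 2 sodium-phosphate cotransporters, Slc34a3 was lower in PBS-treated Trex1-/- than in WT kidneys in the values, without passing the threshold, whereas Slc34a1 overlapped WT. Slc34a1 (chr13:55398187-55415592, plus strand) encodes NaPi-IIa, the main phosphate carrier of the mouse brush border, and Slc34a3 (chr2:25228898-25234364, minus strand) encodes NaPi-IIc, a carrier that parathyroid hormone and FGF23 also control. Slc34a1 was measured at 5075, 4829 and 5016 CPM in the WT kidneys, at 5039, 5566 and 4732 CPM in the PBS-treated Trex1-/- kidneys and at 4297, 5243 and 5006 CPM in the SN-011-treated Trex1-/- kidneys. The 3 groups overlapped. Its log2 fold change was 0.040 (95% interval -0.23 to 0.31, adjusted p = 0.907) with PBS and -0.037 (95% interval -0.31 to 0.23, adjusted p = 0.909) with SN-011, both against WT, and -0.076 (95% interval -0.34 to 0.19, adjusted p = 0.849) between the treatments. Slc34a3 was measured at 83, 88.3 and 84.2 CPM in the WT kidneys, at 54.7, 55.9 and 61.6 CPM in the PBS-treated Trex1-/- kidneys and at 46.9, 55.2 and 84.8 CPM in the SN-011-treated Trex1-/- kidneys. All 3 PBS-treated libraries lay below WT, and 1 SN-011-treated library, replicate 3, lay inside the WT range while the other two lay near the PBS-treated ones. In the fit of PBS-treated against WT kidneys, the log2 fold change of Slc34a3 was -0.57 (95% interval -0.96 to -0.18, adjusted p = 0.159). With SN-011 it was -0.45 (95% interval -0.85 to -0.058, adjusted p = 0.22) against WT and 0.12 (95% interval -0.28 to 0.51, adjusted p = 0.841) against PBS. Leaving out SN-011-treated replicate 3 brought the change of the PBS-treated group to -0.58 (95% interval -0.78 to -0.38, adjusted p = 0.0112) and that of the SN-011-treated group against WT to -0.74 (95% interval -0.97 to -0.51, adjusted p = 0.0172). DESeq2 called Slc34a3 in PBS-treated against WT kidneys (adjusted p = 0.0459), as did the fit over the 6 libraries compared (adjusted p = 0.00394). Among all genes, DESeq2 called 726 of 16646 and that fit 751 of 16170, beside 313 of 16646 in the main fit. Of 18 alternatives, 4 called Slc34a3 for PBS against WT and the rest did not. With the Y-linked term its change was -0.48 (adjusted p = 0.431), not called. The ratio of Slc34a3 to Slc34a1 within a library was 0.0164, 0.0183 and 0.0168 in WT and 0.0109, 0.01 and 0.013 in PBS-treated kidneys. The log2 ratio was lower by a difference of -0.61, with no overlap and with the smallest p that the exact two-sided permutation test allows (p = 0.1, adjusted over 9 ratio tests p = 0.45). In SN-011-treated kidneys the ratio was 0.0109, 0.0105 and 0.0169. The log2 levels of this pair gave no correlation past the threshold over the 9 libraries (Pearson's r = 0.161, exact permutation p = 0.689, adjusted over the 3 pairs p = 0.689, and Spearman's rho = -0.1, exact permutation p = 0.81).

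The stretches before the RefSeq starts of the phosphate carriers are shown since the ratio of this pair is compared above. For Slc34a1 that start lies inside the span given above, which begins farther upstream, so the printed window lies within the annotated gene. Slc34a1 is printed from chr13:55399398-55399647 (plus strand, 250 bases) and Slc34a3 from chr2:25234365-25234484 (minus strand, 120 bases), searched for the same motifs.

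Slc34a1: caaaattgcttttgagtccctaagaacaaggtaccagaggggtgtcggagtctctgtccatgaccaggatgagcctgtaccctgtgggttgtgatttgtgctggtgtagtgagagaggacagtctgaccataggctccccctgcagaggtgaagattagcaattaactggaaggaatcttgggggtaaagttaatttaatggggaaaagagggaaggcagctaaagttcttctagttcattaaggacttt

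Slc34a3: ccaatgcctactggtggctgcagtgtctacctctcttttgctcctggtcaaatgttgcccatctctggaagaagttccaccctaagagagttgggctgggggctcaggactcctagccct

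The full windows of 250 bases were 46.4% G or C for Slc34a1 and 56.4% for Slc34a3. Neither held a match to the 3 motifs, which says only that these letters are not in them.

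SGLT2, the product of Slc5a2 (chr7:128265657-128272430, plus strand), reabsorbs the bulk of filtered glucose in the early proximal tubule. Slc5a2 was measured at 417, 399 and 359 CPM in the WT kidneys, at 236, 255 and 225 CPM in the PBS-treated Trex1-/- kidneys and at 250.4, 250.1 and 330.3 CPM in the SN-011-treated Trex1-/- kidneys. No Trex1-/- library reached the lowest WT library. Slc5a2 fell in PBS-treated Trex1-/- kidneys to a fold of 0.61 of WT (log2 fold change -0.71, SE 0.13, 95% interval -0.99 to -0.43, adjusted p = 0.0163). In SN-011-treated kidneys its difference from WT was -0.50 (95% interval -0.78 to -0.22, adjusted p = 0.0867), and its difference from PBS was 0.21 (95% interval -0.064 to 0.49, adjusted p = 0.547). The call depended on the libraries. With the term for Y-linked reads, where 1.19% of all genes were called for PBS against WT and 3.94% for SN-011 against WT, the change in the PBS-treated group was -0.58 (95% interval -0.86 to -0.29, adjusted p = 0.0701), not called, and the change in the SN-011-treated group was -0.50 (95% interval -0.74 to -0.26, adjusted p = 0.0314), called. Without WT replicate 1 the adjusted p for PBS against WT was 0.0842, without WT replicate 2 it was 0.0808, and without PBS-treated replicate 1, 2 or 3 it was 0.0862, 0.0576 and 0.0773. The log2 fold change stayed between -0.78 and -0.58 over all 18 alternatives, 11 of which kept the call. Of its exon bases, 20.6% are shared with BC017158 on the opposite strand, and the strand setting of the counting is not given in the sources used here. Summed markers of other cells also lay apart in this comparison, with no marker of these lists called: the 5 loop and distal tubule markers summed to 9991 to 11452 CPM in WT and 9059 to 9675 CPM in PBS-treated kidneys, and the 6 immune markers, all with reads, to 20.7 to 29 and 39.9 to 48.9 CPM. Their part in the Slc5a2 result was not tested.

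Slc5a12 (chr2:110597298-110647779, plus strand) encodes SMCT2, a sodium-coupled carrier of lactate and other monocarboxylates. Slc5a12 was measured at 185, 179 and 146 CPM in the WT kidneys, at 136, 132 and 95.7 CPM in the PBS-treated Trex1-/- kidneys and at 156, 132 and 205 CPM in the SN-011-treated Trex1-/- kidneys. The PBS-treated libraries were below all WT libraries, and the SN-011-treated ones spanned both groups, from 132 CPM to the highest of the 9. Its log2 fold change was -0.48 (95% interval -0.89 to -0.079, adjusted p = 0.246) in PBS-treated against WT kidneys and 0.43 (95% interval 0.029 to 0.84, adjusted p = 0.409) between SN-011 and PBS, the one gene of the 10 below 0.05 before adjustment in that comparison, with 11.4% of all genes. Against WT it was -0.050 (95% interval -0.45 to 0.35, adjusted p = 0.918) with SN-011. The 5 libraries with Y-linked reads had 95.7 to 146 CPM and the 4 without had 156 to 205 CPM, with no overlap, a separation that 8.97% of all genes showed and, of the 10, Slc5a12 and Slc7a13. With the Y-linked term the 3 values became -0.22, 0.16 and -0.057, with adjusted p of 0.702, 0.819 and 0.854. The term itself was -0.39 for Slc5a12 (SE 0.15, adjusted p = 0.211), and with no filter beyond 1 read it was called at the same size (-0.39, adjusted p = 0.0157). Slc5a2 and Slc5a12 varied together over the 9 libraries, with Pearson's r = 0.756 (exact permutation p = 0.0169, adjusted over the 3 pairs p = 0.0254) and Spearman's rho = 0.767 (exact permutation p = 0.0214, adjusted p = 0.0321). Without the 2 libraries farthest from the median of Slc5a2, which are WT replicates 1 and 2, r was 0.666, and over deviations from the group means it was 0.851. These permutations likewise disregarded group and Y-linked state, so shared shifts can enter the p-values. The deviations from the group means still hold the Y-linked state.

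**Figure D3:**
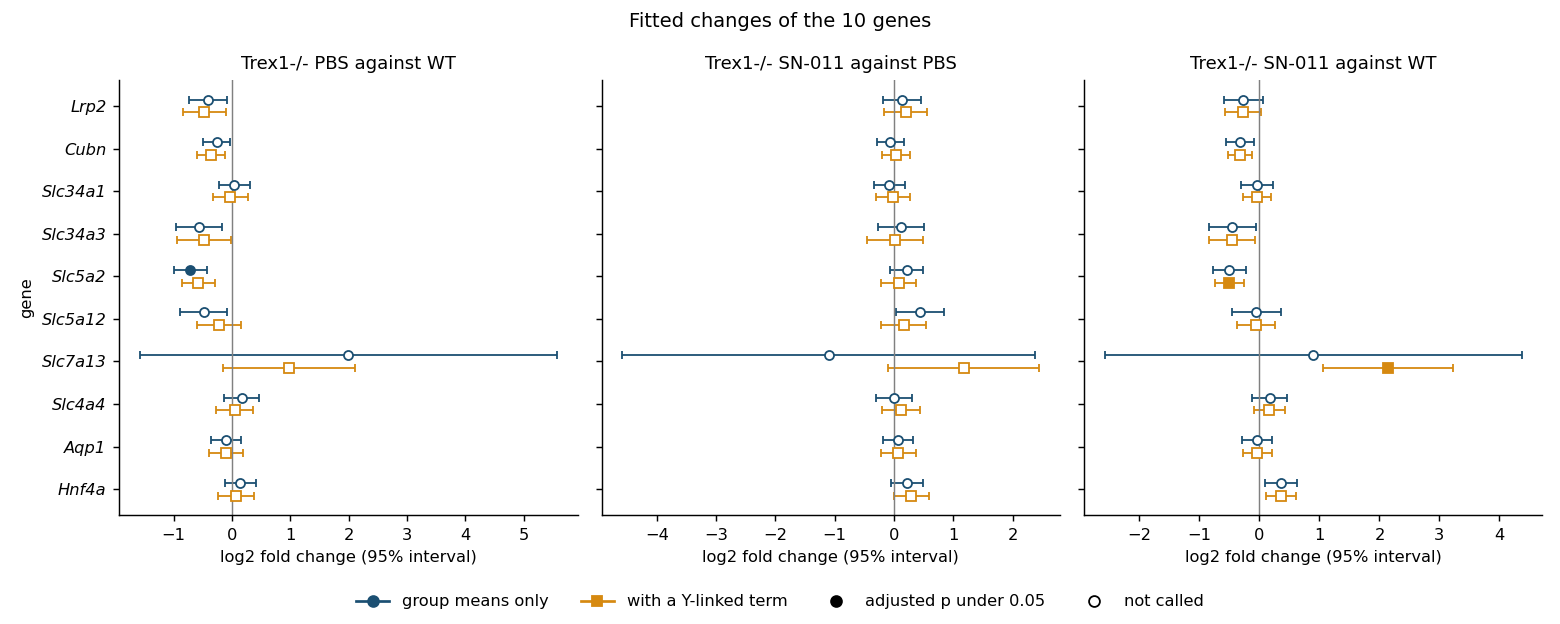
Fitted log2 fold changes with 95% intervals of the 10 genes in the 3 comparisons, from group means alone (circles) and with a term for Y-linked reads (squares); filled symbols have an adjusted p under 0.05. Filled are Slc5a2 for PBS against WT without the term, and Slc5a2 and Slc7a13 for SN-011 against WT with it; the x axes differ between panels.

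Neither the bicarbonate nor the water transport gene passed the threshold in any comparison. Slc4a4 (chr5:88886818-89239653, plus strand) encodes NBCe1, the basolateral sodium-bicarbonate cotransporter. Slc4a4 was measured at 683, 608 and 678 CPM in the WT kidneys, at 802, 751 and 658 CPM in the PBS-treated Trex1-/- kidneys and at 608, 839 and 764 CPM in the SN-011-treated Trex1-/- kidneys. The groups overlapped, and the log2 fold changes were 0.17 (95% interval -0.13 to 0.47, adjusted p = 0.599) with PBS and 0.17 (95% interval -0.13 to 0.47, adjusted p = 0.56) with SN-011 against WT, and 0.00038 (95% interval -0.30 to 0.30, adjusted p = 0.999) between the treatments. Aqp1 (chr6:55336432-55348555, plus strand) encodes the water channel of both membranes of the proximal tubule cell, which also lines the thin descending limb. Aqp1 was measured at 987, 1158 and 1155 CPM in the WT kidneys, at 1049, 1014 and 1017 CPM in the PBS-treated Trex1-/- kidneys and at 1207, 1030.3 and 979.7 CPM in the SN-011-treated Trex1-/- kidneys. Its 3 groups overlapped as well, and over the 9 libraries it had the smallest range of the 10 genes, 0.30 on the log2 scale. Its log2 fold changes were -0.10 (95% interval -0.35 to 0.15, adjusted p = 0.725) with PBS and -0.037 (95% interval -0.29 to 0.22, adjusted p = 0.901) with SN-011 against WT, and 0.063 (95% interval -0.19 to 0.32, adjusted p = 0.871) between the treatments.

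Hnf4a (chr2:163506808-163572910, plus strand), the transcription factor of the 10, was higher in the Trex1-/- groups in its means, without passing the threshold. Hnf4a was measured at 529.8, 541 and 517 CPM in the WT kidneys, at 599, 648 and 508 CPM in the PBS-treated Trex1-/- kidneys and at 656, 772 and 615 CPM in the SN-011-treated Trex1-/- kidneys. All 3 SN-011-treated libraries lay above all 3 WT libraries, which 11.8% of all genes did, whereas the PBS-treated libraries overlapped WT. The log2 fold change was 0.36 (95% interval 0.094 to 0.63, adjusted p = 0.164) for SN-011 against WT, 0.14 (95% interval -0.12 to 0.41, adjusted p = 0.619) for PBS against WT and 0.22 (95% interval -0.050 to 0.49, adjusted p = 0.524) for SN-011 against PBS. With the Y-linked term the value for SN-011 against WT was 0.36 (95% interval 0.11 to 0.60, adjusted p = 0.102). None of these passed the threshold. Cubn and Slc5a2 lay wholly below WT in the same groups, which 9.99% of all genes did.

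Slc7a13 (chr4:19818725-19842218, plus strand) varied more than any other of the 10 genes, over 8.52 log2 units, and its level followed the Y-linked reads. Slc7a13 was measured at 2.26, 8.99 and 506 CPM in the WT kidneys, at 489.9, 807 and 765 CPM in the PBS-treated Trex1-/- kidneys and at 47.1, 871 and 43.4 CPM in the SN-011-treated Trex1-/- kidneys. The 5 libraries with Y-linked reads had 489.9 to 871 CPM and the 4 without had 2.26 to 47.1 CPM, with no overlap. With the group in the same fit, Slc7a13 was higher with Y-linked reads by 5.42 on the log2 scale (SE 0.50, adjusted p = 0.000213), and it was the one gene of the 10 called for this term, which called 3.65% of all genes, joined by Slc5a12 with no filter beyond 1 read. From group means alone, its log2 fold change was 2.00 (95% interval -1.58 to 5.57, adjusted p = 0.603) for PBS against WT, -1.10 (95% interval -4.58 to 2.38, adjusted p = 0.828) for SN-011 against PBS and 0.90 (95% interval -2.58 to 4.37, adjusted p = 0.809) for SN-011 against WT. These values rest on how the 2 kinds of library fall into the groups: without WT replicate 3, the one WT library with Y-linked reads, the change for PBS against WT was 6.92, and without SN-011-treated replicate 2 the change for SN-011 against WT was -1.93 and that for SN-011 against PBS was -3.93. Without SN-011-treated replicate 1 or 3, the latter was -0.59 and -0.58.

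Within each kind of library, Slc7a13 was higher in Trex1-/- than in WT kidneys in the values. Without Y-linked reads, the 2 WT libraries had 2.26 and 8.99 CPM and the 2 SN-011-treated libraries 47.1 and 43.4 CPM, a log2 fold change of 3.0 (95% interval 1.99 to 4.01, adjusted p = 0.0141), which was called in the fit over these 4 libraries. The WT pair lay farther apart, relative to its level, than the SN-011-treated pair. With Y-linked reads, the WT library had 506 CPM, the PBS-treated libraries 489.9, 807 and 765 CPM and the SN-011-treated library 871 CPM, so that 1 PBS-treated library lay below WT. There, 1.43% of all genes were called for PBS against WT and 2.05% for SN-011 against WT, and the log2 fold change of Slc7a13 was 0.44 (95% interval -0.14 to 1.02, adjusted p = 0.535) for PBS against WT and 0.80 (95% interval 0.11 to 1.5, adjusted p = 0.197) for SN-011 against WT, each with 1 WT library whose spread was taken from the PBS-treated group. Over all 9 libraries with the Y-linked term, Slc7a13 was called higher in SN-011-treated than in WT kidneys (log2 fold change 2.15, SE 0.49, 95% interval 1.06 to 3.23, adjusted p = 0.0395), and was not called for PBS against WT (0.97 (95% interval -0.16 to 2.10, adjusted p = 0.536)) or for SN-011 against PBS (1.18 (95% interval -0.093 to 2.45, adjusted p = 0.544)). The test of whether the change with SN-011 differed between the 2 kinds of library gave -2.22 (SE 0.66, adjusted p = 0.205). Without WT replicate 2 that difference was -3.53 (adjusted p = 0.0273), which passes the threshold, and without WT replicate 1 it was -1.55 (adjusted p = 0.294). Each of these fits leaves 1 WT library without Y-linked reads. With no filter beyond 1 read, the difference was -2.20, nearly the size of the value first given. It passed the threshold there through a smaller estimated spread. Of the libraries with Y-linked reads, this test holds 1 WT and 1 SN-011-treated library. Its p-values therefore cannot measure the spread between such libraries.

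Several of the 11 kidney genes listed for a sex difference moved with the same reads as Slc7a13. Of 8 genes listed as male-biased, 5 were called higher with Y-linked reads, a term that called 3.65% of all genes: Cyp4b1, Cyp2e1, Acsm3, Cyp7b1 and Cyp4a12a. Acsm3, a mitochondrial acyl-CoA synthetase, had 106 to 408 CPM with and 1.25 to 3.02 CPM without Y-linked reads, a term of 7.39 on the log2 scale (adjusted p = 4.37e-07). Cyp2e1, a cytochrome P450, had 523 to 1228 CPM with and 73.3 to 98.8 CPM without Y-linked reads. Kap, the androgen-regulated protein of the kidney, had 7871 to 18781 CPM with and 648 to 6807 CPM without Y-linked reads and was not called (adjusted p = 0.0952), and Odc1 and Gusb were not called. Of 3 genes listed as female-biased, 2 were called lower with Y-linked reads, the amino acid transporter gene Slc7a12 (19.2 to 66.6 CPM with and 135 to 185 CPM without Y-linked reads) and Prlr, the prolactin receptor gene (50.2 to 125 CPM with and 216 to 297 CPM without Y-linked reads), and Cyp4a14 was not called. None of these 11 genes was called between groups, with or without the Y-linked term.

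**Figure D4:**
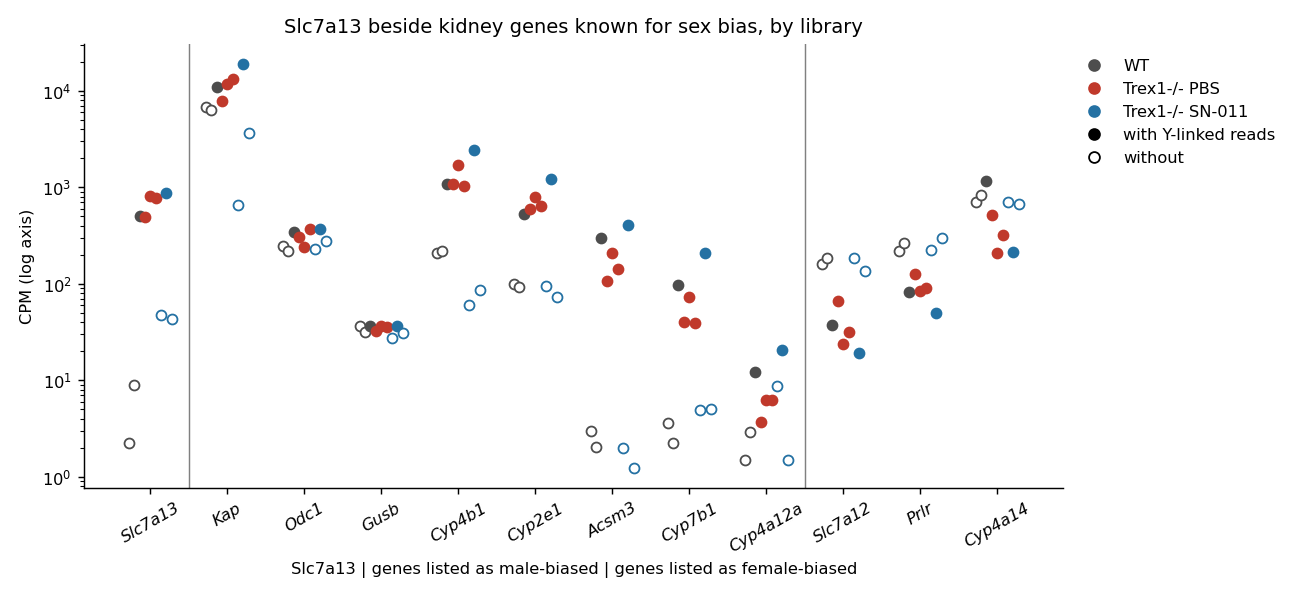
CPM (log axis) of Slc7a13 and of kidney genes listed as male-biased and female-biased in the 9 libraries; colours are the groups, filled points have Y-linked reads and open points do not. Filled and open points separate for Slc7a13, Kap, Cyp4b1, Cyp2e1, Acsm3 and Cyp7b1, with the filled ones higher, and for Slc7a12 and Prlr, with the filled ones lower.

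The ratio of Slc7a13 to Slc5a2, genes known from opposite ends of the proximal tubule, joined both patterns. It was 0.00543, 0.0225 and 1.41 in WT, 2.07, 3.17 and 3.39 in PBS-treated and 0.188, 3.48 and 0.132 in SN-011-treated kidneys. The PBS-treated libraries lay above all WT libraries (exact two-sided permutation p = 0.1, the smallest possible, adjusted over 9 tests p = 0.45), and all 3 of them carried Y-linked reads. The 4 ratios below 1 belonged to the 4 libraries without Y-linked reads.

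Of 61 further proximal tubule genes of related function in 7 lists, 1 was called for PBS against WT, where 1.88% of all genes were called. None was called for SN-011 against PBS, with 0% of all genes called, or for SN-011 against WT, with 1.28%. The share called in the lists was thus near that of all genes. Their median log2 fold changes were 0.015, -0.054 and -0.044 in these 3 comparisons, beside 0.0028, -0.0053 and -0.0034 over all genes. None of the 10 endocytic partners was called in any comparison (medians -0.091, -0.013 and -0.035). They include Dab2, the adaptor of the megalin tail, with 389 ± 37 CPM in WT, 339.6 ± 25.9 CPM in PBS-treated Trex1-/- and 363 ± 29.3 CPM in SN-011-treated Trex1-/- kidneys (SD, n = 3 each), and Amn, encoding the cubilin partner amnionless, with 322 ± 34.4 CPM in WT, 329 ± 26.1 CPM in PBS-treated Trex1-/- and 311 ± 32.5 CPM in SN-011-treated Trex1-/- kidneys (SD, n = 3 each). None of the 10 genes of phosphate and vitamin D handling was called (medians 0.095, -0.051 and 0.0076), among them Pth1r, the parathyroid hormone receptor gene, and Kl, encoding the FGF23 coreceptor klotho. Cyp24a1, the vitamin D 24-hydroxylase gene, had 37.4 ± 8.68 CPM in WT, 110.4 ± 29.4 CPM in PBS-treated Trex1-/- and 64.7 ± 46.9 CPM in SN-011-treated Trex1-/- kidneys (SD, n = 3 each), with a log2 fold change of 1.56 (adjusted p = 0.11) for PBS against WT. The 5 genes of sugar transport (medians -0.069, -0.054 and 0.025) and the 13 of amino acid transport (medians -0.18, -0.0056 and -0.19) held no call. Slc7a8, a light chain of basolateral amino acid exchange, stood at -0.58 (adjusted p = 0.135) and Slc7a9, a light chain of cystine uptake, at -0.49 (adjusted p = 0.132) for PBS against WT.

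None of the 10 genes of sodium, bicarbonate and water transport was called from group means (medians 0.014, -0.12 and -0.077). With the Y-linked term Aqp7, an aquaglyceroporin gene, was called lower for SN-011 against WT at -0.56 (adjusted p = 0.033), where 3.94% of all genes were called. In the list of carboxylate and sulfate transport (medians 0.22, -0.11 and -0.031), none of 5 was called from group means. Slc5a8, which encodes the lactate carrier SMCT1 and shares its substrates with the product of Slc5a12, had 149 ± 72.5 CPM in WT, 378 ± 21.5 CPM in PBS-treated Trex1-/- and 257 ± 112 CPM in SN-011-treated Trex1-/- kidneys (SD, n = 3 each). With the Y-linked term Slc5a8 rose in both Trex1-/- groups against WT, by 0.75 (adjusted p = 0.0204) with PBS and 0.82 (adjusted p = 0.00359) with SN-011, and the term itself was 1.05 (adjusted p = 0.000524). Of all genes, 1.19% were called with PBS, 3.94% with SN-011 and 3.65% for the term itself. Of 8 transcription factors (medians -0.019, -0.12 and -0.091), Maf fell by 0.42 on the log2 scale (adjusted p = 0.0394) in PBS-treated against WT kidneys, from 296 ± 9.86 to 221 ± 12.2 CPM (SD, n = 3), and with the Y-linked term it was not called, at -0.47 (adjusted p = 0.0501). Nr1h4, the bile acid receptor gene, was higher with Y-linked reads by 0.97 (adjusted p = 0.0126).

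**Figure D5:**
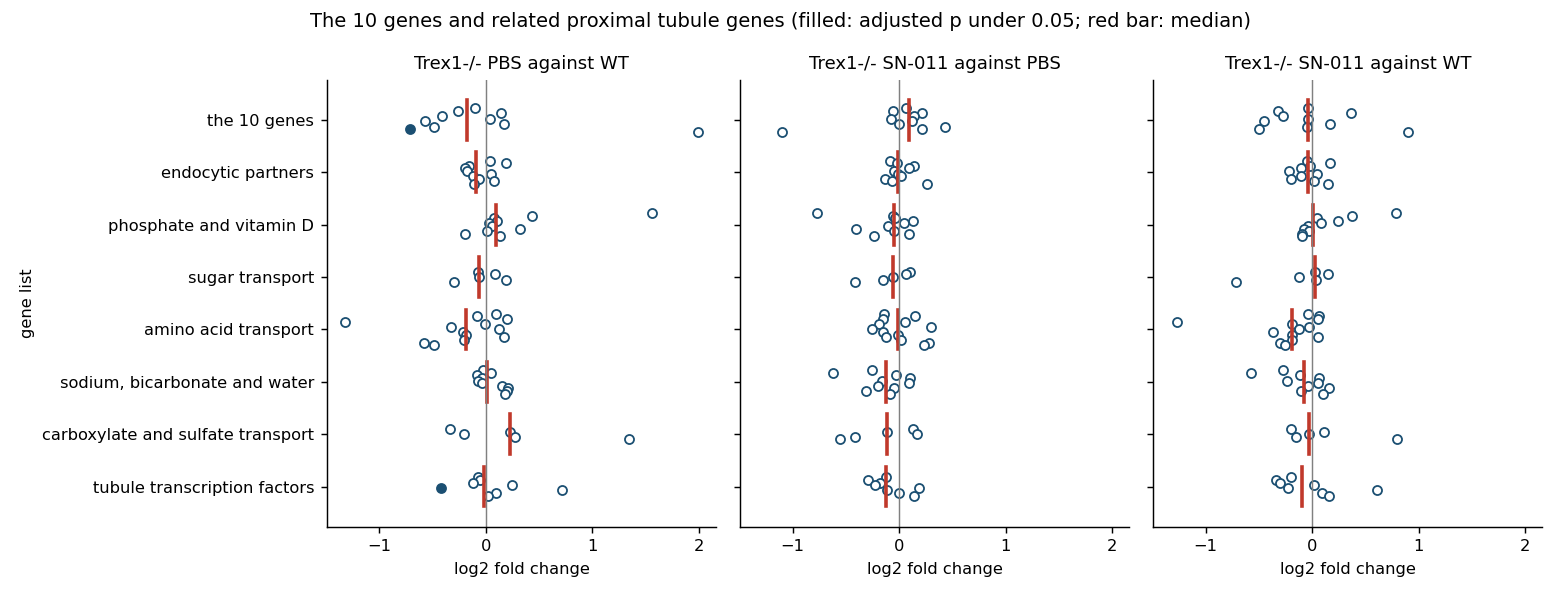
Log2 fold changes of the 10 genes and of 61 related genes in 7 lists for the 3 comparisons; each point is a gene, filled where the adjusted p is under 0.05, and red bars are medians. Slc5a2 among the 10 and Maf among the transcription factors are the filled points, both for PBS against WT.

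For the 3 genes with the widest range over the libraries, the genes most alike in pattern were sought among 10057 genes with a mean of at least 10 CPM, by Pearson's r of log2 CPM over the 9 libraries, as a description. For Slc7a13 these were Bspry (r = 0.986, 46.5 to 68.8 CPM), Timd2 (r = 0.983, 5.33 to 69.2 CPM), Pak1 (r = 0.971, 36.2 to 61.5 CPM). Among them, Timd2 also spanned a wide range. For Slc5a12, which covered 1.10 log2 units, they were Deptor (r = 0.965, 85.9 to 129 CPM), Atf7ip (r = 0.948, 47.5 to 71.9 CPM), Zfp113 (r = 0.946, 13 to 17.1 CPM). For Slc34a3, with 0.91 log2 units, they were Bnip3l (r = 0.978, 106 to 139 CPM), Tfpi2 (r = 0.961, 10.4 to 20.3 CPM), Atp6v0e2 (r = 0.949, 24.8 to 48.5 CPM). The 9 libraries share groups and the 2 kinds of Y-linked state, and the highest of so many values is high by selection.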

How the data were processed

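RNA of 9 mouse kidney samples was poly(A)-selected and sequenced as paired ends. The authors trimmed reads with Trimmomatic, aligned them with HISAT2 to mm10, and deposited raw featureCounts counts, in which pairs mapped to 1 place were assigned to Ensembl genes; versions, annotation and strand setting are not given in the sources used here. At its default setting, featureCounts leaves out pairs over exons of more than 1 gene, so genes that share exons can be undercounted. Of 54532 identifiers, 54495 matched GENCODE vM21 on GRCm38, which gave symbols, positions and exon lengths.

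Counts were fitted in R 4.3.3 with edgeR 4.0.16 (quasi-likelihood F test, TMM, filterByExpr with a minimum count of 10 and a total of 15), all 9 libraries and 1 mean per group, as the study's own tool and scaling; a gene was called at a Benjamini-Hochberg adjusted p under 0.05 over 16646 genes. Standard errors and 95% intervals come from the F statistics. The Y-linked term marks libraries with over 10 CPM of Y-linked transcripts. Exact permutation tests were two-sided. Alternatives were DESeq2 1.42.0 (test and size factors), edgeR's exact test, other filters, subsets of libraries, a replicate block and leaving out each library. On simulated counts for PBS against WT (16388 genes, 200 changed), 64% of 2-fold and 96% of 4-fold changes were recovered, with 8 false calls. The depth of 16118813 counts or more gave every one of the 10 genes at least 48 counts per library. The labels do not state that replicates are separate animals. Y-linked reads show that WT and SN-011-treated groups each hold more than 1 animal; otherwise p-values measure only the spread between these samples, which may be partly technical.

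All 10 genes are described, and further genes come from lists of related function, sex bias and cell type markers; 2 genes counted in these lists are not reported singly here; genes alike in pattern were named for the 3 genes of widest range. The 10 genes and the lists were chosen with earlier results of these data known. Promoter windows are RefSeq's on GRCm38.p6.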

Additional observations from a re-analysis of the deposited data

How the results depend on the processing

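With 16118813 counts or more per library, the spread between samples of a group, and not counting error, sets the width of most intervals given for the 10 genes. The main fit pools that spread over the 3 groups and draws on other genes to estimate it. The sex of the animals is not labelled, all PBS-treated libraries carried Y-linked reads, and so a comparison with that group rests on 1 WT and 1 SN-011-treated library of the same kind. The cause of the changes listed here was not tested.

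For PBS against WT, the number of genes called (313) became 707 with no filter beyond 1 read, 198 with the Y-linked term, 751 over only the 6 libraries compared, 683 by edgeR's exact test and 726 by DESeq2, and the number of the 10 genes called (1) became 2 with no filter, over 6 libraries and by DESeq2, and 0 with the Y-linked term or only libraries with Y-linked reads. For SN-011 against PBS, the 0 genes called became 127 with no filter, 107 in only libraries with Y-linked reads, 127 by the exact test and 166 by DESeq2. For SN-011 against WT, 213 became 607 with no filter, 656 with the Y-linked term, 43 over 6 libraries, 356 in libraries with and 461 in libraries without Y-linked reads, 601 by the exact test and 806 by DESeq2, and the number of the 10 genes called (0) became 1 with no filter and by DESeq2, and 2 with the Y-linked term and in libraries without Y-linked reads.

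Sign changes include these. With the Y-linked term, the log2 fold change was -0.025 for Slc34a1 (PBS against WT), and 0.037 for Cubn and 1.18 for Slc7a13 (SN-011 against PBS); the median of the male-biased list became -0.99 and of the female-biased list 0.37 for PBS against WT, and -0.69 for the female-biased and 0.39 for the male-biased list for SN-011 against PBS. Smaller list medians that changed sign with this term were 0.044 (sugar transport) and -0.046 (all 61 related genes) for PBS against WT, and 0.080 (endocytic partners), 0.084 (phosphate and vitamin D), 0.031 (carboxylate and sulfate transport) and 0.0071 (all 61 related genes) for SN-011 against PBS. In only libraries with Y-linked reads, SN-011 against PBS gave 0.11 for Cubn, 0.060 for Slc34a1, -0.033 for Slc34a3 and 0.37 for Slc7a13, with 0.31 for the log2 ratio of Slc7a13 to Slc5a2 and -0.094 for that of Slc34a3 to Slc34a1; SN-011 against WT gave 0.13 for Lrp2 and 0.085 for Slc34a1, and the log2 ratio of Cubn to Lrp2 was -0.040 for PBS against WT. In libraries without Y-linked reads, SN-011 against WT gave 0.027 for Aqp1 and 0.096 for the ratio of Cubn to Lrp2. Slc4a4 for SN-011 against PBS was -0.011 with no filter and -0.0023 with the replicate block, and over 18 alternatives it ran from -0.11 to 0.21.

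Leaving out each library in turn gave ranges that include these. For SN-011 against PBS, the list median ran from -0.27 to 0.071 (sugar transport) and -0.077 to 0.045 (endocytic partners). That of the transcription factors for PBS against WT ran from -0.087 to 0.096. The log2 fold change for SN-011 against PBS ran from 0.0016 to 0.25 (Lrp2) and -0.14 to -0.0059 (Cubn). The number of genes called ran from 153 to 774 (PBS against WT), 0 to 519 (SN-011 against PBS) and 38 to 376 (SN-011 against WT). The number of the 10 genes called ran from 0 to 2 (PBS against WT) and 0 to 2 (SN-011 against WT). The log2 fold change ran from -0.032 to 0.088 (Slc34a1 for PBS against WT), -0.14 to 0.0032 (Slc34a1 for SN-011 against PBS), -0.16 to 0.29 (Slc34a3 for SN-011 against PBS), -0.11 to 0.12 (Slc4a4 for SN-011 against PBS), -0.031 to 0.13 (Aqp1 for SN-011 against PBS), -0.10 to 0.043 (Slc34a1 for SN-011 against WT), -0.24 to 0.080 (Slc5a12 for SN-011 against WT), -1.93 to 5.82 (Slc7a13 for SN-011 against WT) and -0.13 to 0.025 (Aqp1 for SN-011 against WT). The log2 difference in ratio ran from -0.068 to 0.28 (Slc34a3 to Slc34a1 for SN-011 against PBS) and -0.10 to 0.048 (Cubn to Lrp2 for SN-011 against WT). The Pearson's r ran from -0.45 to 0.42 (Slc34a1 with Slc34a3) and 0.71 to 0.80 (Slc5a2 with Slc5a12). The list median log2 fold change ran from -0.041 to 0.10 (sodium, bicarbonate and water for PBS against WT), 0.030 to 1.92 (male-biased kidney genes for PBS against WT), -2.69 to 0.073 (male-biased kidney genes for SN-011 against PBS), -0.25 to -0.068 (amino acid transport for PBS against WT), -0.21 to -0.051 (the same for SN-011 against WT), -0.013 to 0.32, -0.23 to 0.12 and -0.050 to 0.11 (carboxylate and sulfate transport for PBS against WT, SN-011 against PBS and SN-011 against WT), -0.12 to 0.0051 (sodium, bicarbonate and water for SN-011 against WT) and -1.71 to 2.10 (male-biased kidney genes for SN-011 against WT). The Y-linked term ran from -0.22 to 0.38 (Lrp2), -0.27 to 0.079 (Slc34a3), -0.079 to 0.10 (Aqp1) and -0.056 to 0.29 (Hnf4a). The difference between the 2 kinds of library in the change with SN-011 ran from -0.59 to 0.26 (Slc34a3), -0.21 to 0.19 (Slc5a2) and -0.32 to 0.080 (Slc5a12). The highest number of genes called for SN-011 against PBS came without SN-011-treated replicate 2, which leaves that group with no Y-linked reads.

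Same-numbered libraries of different groups correlated at -0.29 to 0.24, with 5 of 9 pairs over 0.1, and 4 of 9 libraries correlated best with their own number. This check detected no pairing by number. It cannot exclude one, since the Y-linked states cut across the numbers. A replicate block called 312, 0 and 231 genes for PBS against WT, SN-011 against PBS and SN-011 against WT, and 1, 0 and 0 of the 10 genes. Of 1292 recomputed values, 1168 kept their direction and side of the threshold or stayed within the spread.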

Other observations

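WT replicate 3, the WT library with Y-linked reads, also held the highest level of 2 genes that injured proximal tubule cells are known to express. Havcr1, encoding KIM-1, was at 16 CPM there and at 0.415 to 4.98 CPM in the other 8 libraries, and Lcn2, encoding lipocalin-2, was at 28.2 CPM there and at 4.56 to 17.9 CPM elsewhere. For PBS against WT, Havcr1 was not called from group means (log2 fold change -1.04, adjusted p = 0.639 in edgeR's quasi-likelihood test) and was called lower with the Y-linked term (-2.16, adjusted p = 0.0204), where the term itself was 2.92 (adjusted p = 0.00134). WT replicates 1 and 2 had 1.65 and 1.45 CPM of Havcr1, and the PBS-treated libraries 2.44, 3.39 and 3.29 CPM. Vcam1 (13.9 CPM), Krt20 (0.521 CPM) and Sox9 (1.45 CPM) lay inside the range of the other libraries in WT replicate 3. Vcam1 lay higher in all PBS-treated libraries (24.1, 27.4 and 21.9 CPM) than in all WT libraries (15.9, 12.9 and 13.9 CPM). For Havcr1, Lcn2, Krt20 and Sox9 these groups overlapped. The 5 injured tubule markers together summed to 20.9 to 60.1 CPM in WT, 36.5 to 50.8 CPM in PBS-treated and 27.5 to 48 CPM in SN-011-treated Trex1-/- kidneys. The genes of vitamin D activation and breakdown varied within groups as well: Cyp27b1, the 1-alpha-hydroxylase gene, was at 5.56, 5.19 and 29.2 CPM in the WT kidneys, and Cyp24a1 was at 44.6, 31.1 and 118 CPM in the SN-011-treated kidneys.

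Podocyte, endothelial and collecting duct markers were present in all groups. The 4 podocyte markers summed to 405 to 446, 416 to 481 and 453 to 566 CPM in WT, PBS-treated and SN-011-treated kidneys, so that the SN-011-treated libraries lay above all WT libraries. The 4 endothelial markers summed to 323 to 365, 337 to 359 and 282 to 375 CPM, and the 5 collecting duct markers to 1034 to 1560.5, 944 to 1262 and 887 to 1420.0 CPM. Of the 5 fat and adrenal markers, which summed to 49 to 155, 22.7 to 68.9 and 16.1 to 66.9 CPM, the adrenal genes were at or near 0: Cyp11b2 was at 0 in all libraries, and Cyp11b1 was at 0 in all WT and PBS-treated libraries and at most at 0.058 CPM with SN-011. No test was run on these sums.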
